A study of Mus musculus and Homo sapiens with 75 samples.

Results

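KO-52 cells that carried full-length C/EBPα (p42) were compared with KO-52 cells that carried an empty vector (EV), both after 2 h of lipopolysaccharide (LPS). KO-52 is a human acute myeloid leukaemia (AML) line with mutations in both copies of CEBPA. The comparison took all libraries labelled p42 with LPS (3) and all labelled EV with LPS (3), which were 6 of the 18 KO-52 libraries and of the 75 libraries of the series, and all genes of the KO-52 count table. Poly-A RNA was sequenced from GFP-positive cells. Per the methods of the study, cells were electroporated with a plasmid that carried p42 with FLAG and GFP, p30 with FLAG and GFP, or GFP alone (EV), GFP-positive cells were sorted after 24 h, and LPS was added 24 h after the sort at 100 ng/mL. Expression from these plasmids was transient, all groups were the same line, and the cells' own mutant CEBPA was present in every group. The 3 EV and 3 p42 libraries without LPS, and the 3 p30 libraries with LPS, were used for reference.

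C/EBPα is a transcription factor of the basic leucine zipper class that drives progenitors of the bone marrow towards granulocytes and monocytes. Its messenger RNA is translated into a full-length protein, p42, and into a shorter protein, p30, that starts at an internal site and lacks part of the amino-terminal transactivation region. AML cells with CEBPA mutations often make p30 and little or no p42. LPS, from the outer membrane of Gram-negative bacteria, is bound by CD14 and by the complex of TLR4 and MD-2 (gene LY96), and signals through MYD88 and TRIF to NF-κB, AP-1 and interferon regulatory factors. Within hours this raises cytokines and chemokines, and with them inhibitors that end the response.

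Levels are given as CPM, read counts put on a common library total and here scaled by 92 ERCC spike-in RNAs, which were added to each RNA sample as an external standard. Changes are log2 ratios of p42 over EV from edgeR's quasi-likelihood test. The standard errors (SE) were worked out from the log2 change and the statistic of that test, and are rough where EV had few reads. A gene was called when its Benjamini-Hochberg adjusted p was under 0.05 and its log2 change was beyond 1 in either direction. The test draws the spread of a gene largely from other genes, so very small adjusted p-values do not measure the spread within a group. The 6 libraries had from 21877850 to 29074319 counts on genes. The spike-ins took from 0.331% to 0.537% of counts in EV and from 0.387% to 0.755% in p42, so that the scaled level of nearly every gene was shifted together within a group: p42 library a read low and p42 library c read high, and EV library 1 read high and EV library 3 read low. Scaling by TMM, which centres the bulk of genes, removes such shifts. The median log2 change of all tested genes was -0.29 with spike-ins and 0.02 with TMM, so the direction of small falls depends on this choice. In rank order of genes, libraries of a group had correlations (Spearman) from 0.989 to 0.991, and libraries of different groups from 0.938 to 0.952.

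CEBPA itself (hg38 chromosome 19, 33299934-33302534) did not mark the p42 libraries by its count. It stood at 3447, 3186 and 1966 CPM in EV and at 820, 1008 and 1561 CPM in p42 with LPS, and the groups did not overlap. The log2 change was -1.34 (SE 0.264, adjusted p = 9.29e-06), and it was also below 0 with TMM (-1.04). The count sums reads of the cells' own mutant gene and of the plasmid where they align, so it is no measure of p42 protein. Markers of the line were detected in all 6 libraries, but not all at like levels in EV and p42. CD33 was at 60.0 to 134 CPM, MPO at 165 to 622 CPM and SPI1 at 144 to 319 CPM over the 6 libraries. CD34 was lower in p42 (113 to 227 CPM) than in EV (471 to 669 CPM). KIT was at 24.4 to 37.9 CPM in EV and 14.8 to 26.6 CPM in p42, with overlap. CD38 reached 21.2 CPM in EV and 45.4 CPM in p42, also with overlap. MS4A1, PAX5 and HBB, which mark B cells and red cells, were at or under 0.167 CPM in all 6. CD3D, a T-cell gene, was present at 113 to 153 CPM in EV and 42.9 to 69.0 CPM in p42, while CD3E was at or under 1.31 CPM in all 6.

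After LPS, most tested chemokines (12 of 15) and complement genes and receptors (8 of 10) were higher in p42 than in EV. So were most late granule genes (13 of 18) and genes listed as NF-κB inhibitors (7 of 9). Cytokines (11 of 20), primary granule proteins (6 of 11) and phagocyte oxidase genes (4 of 8) were called higher as well. Of 21272 genes tested, 1665 were higher (7.83% of those tested) and 806 were lower (3.79%), together 2471 (11.6%). With TMM the split was 2233 higher and 349 lower, so that 67.4% of calls were rises with spike-ins and 86.5% with TMM. Of the 1665 rises, 1660 (99.7%) were also called with TMM and 1250 (75.1%) also when each of the 6 libraries was left out in turn and with TMM. Of the 806 falls, 335 (41.6%) were also called with TMM and 222 (27.5%) in all of these fits. The count of falls turned on single libraries: it was 1985 without p42 library c, 1328 without EV library 3, 396 without p42 library a, 378 without EV library 1 and 485 without p42 library b. The groups did not overlap for 1559 of the called rises and 761 of the called falls, against 1940 genes above and 2810 genes below EV without overlap among all genes tested. In bulk RNA a change in the share of cells that express a gene and a change in its RNA per cell cannot be told apart.

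**Figure D1:**
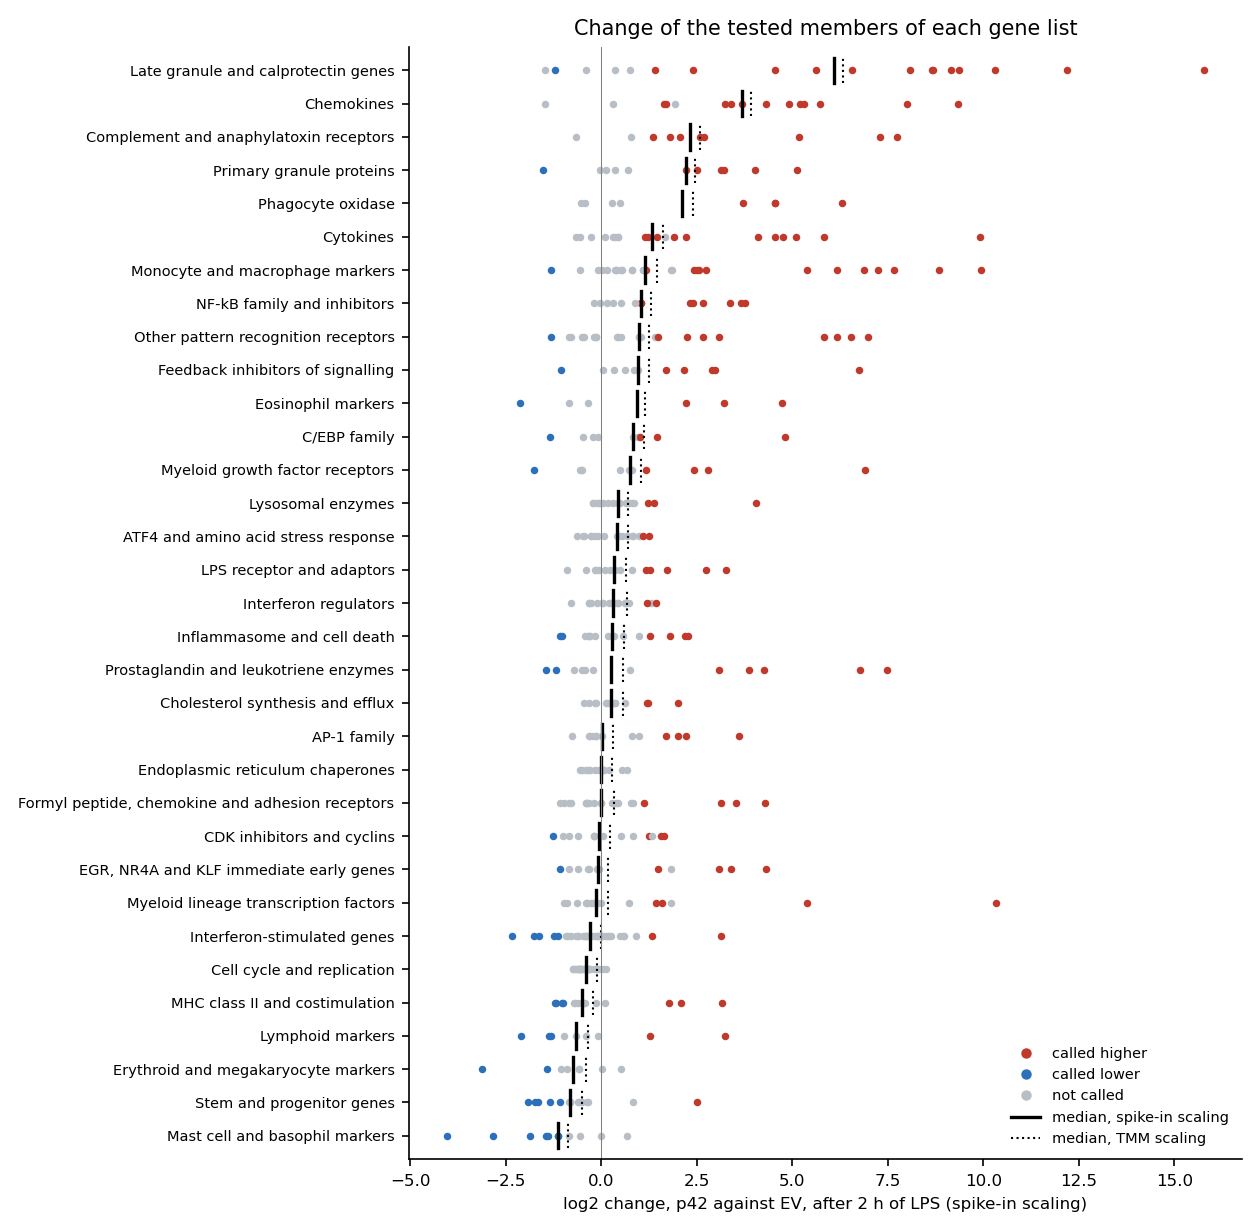
Log2 change of p42 against EV after 2 h of LPS (horizontal axis, spike-in scaling) for each tested member of 33 gene lists (rows, ordered by median). Points are genes, red where called higher, blue where called lower and grey where not called. Solid bars are list medians with spike-in scaling and dotted bars with TMM. The medians ran from -1.14 (mast cell and basophil markers) to 6.09 (late granule genes), and the points farthest to the right include genes with few or no reads in EV, whose fitted change depends on the prior count.

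The 12 largest rises were S100A9 and genes with no reads in EV, among them MMP8. MMP8 (neutrophil collagenase, chromosome 11, 102711796-102727050) had 0 counts in every EV library with LPS and 156, 321 and 351 CPM in the p42 libraries. Against a floor of 3 counts over the EV group this was at least 5705-fold higher. S100A9 (a calprotectin subunit, chromosome 1, 153357854-153361023) was at 0, 0.209 and 0.0342 CPM in EV and at 269, 478 and 546 CPM in p42. Its log2 change was 12.18 (SE 0.531, adjusted p = 7.5e-112), and its adjusted p in the same test with TMM was 8.8e-15. In all, 290 of the called rises had 0 counts in the EV group. The other genes among the 12 largest rises were RPH3A (at least 1042-fold higher), ROS1 (at least 446-fold), SERPINB12 (at least 436-fold), RBP4 (at least 420-fold), the non-coding LOC102724858 (at least 1316-fold), LOC105370972, LRRC7-AS1 and LOC105374264, and the pseudogenes VNN3P and UGT2B26P. Without LPS, MMP8 was at 0 counts in EV and at 177, 253 and 300 CPM in p42, and S100A9 was at 282 to 508 CPM in p42.

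Late granule and calprotectin genes, which neutrophils switch on as they mature, had the highest list median. Of 22 listed genes 18 were tested, 13 were called higher and 1 lower, with a median log2 change of 6.09, or 5.03 with the 4 genes that had no reads in EV set at their bound. The median of all genes tested was -0.29. HP (haptoglobin) had 2 counts in the EV group and 21.8, 49.4 and 57.0 CPM in p42, a ratio of 1308 (95% counting interval 362 to 10809). S100A8, the partner of S100A9, had 1 count in EV and 11.8, 10.4 and 16.9 CPM in p42, a ratio of 854 (153 to 33785). Such intervals cover counting error only. Primary granule proteins rose less: 6 of 11 tested were called higher and 1 lower (median 2.22). LYZ (lysozyme) was at 80.9, 55.2 and 51.4 CPM in EV and at 211, 560 and 868 CPM in p42 (log2 change 3.13, SE 0.318). MS4A3 (5.12), PRTN3 (proteinase 3, 4.02) and RNASE3 (eosinophil cationic protein, 3.21) also rose on the log2 scale. MPO (myeloperoxidase), at 204 to 348 CPM in EV and 165 to 622 CPM in p42, was not called, and its log2 change of 0.35 was -0.28 without p42 library c.

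The phagocyte oxidase, which makes superoxide in the phagosome, showed a split between its subunits. CYBB, the catalytic subunit, was at 4.06, 2.92 and 4.78 CPM in EV and at 57.5, 91.5 and 129 CPM in p42 (log2 change 4.56). The cytosolic subunit NCF1 rose (6.29), while NCF4 (-0.53) and RAC2 (-0.42) were not called and were abundant in both groups (means 338 and 235 CPM for NCF4, 404 and 302 CPM for RAC2, EV first). SOD2, the mitochondrial superoxide dismutase counted in the same list, was at 57.1 to 89.1 CPM in EV and at 942 to 2019 CPM in p42 (log2 change 4.55). Reads of NCF1 may be shared with its near-identical pseudogene copies, so its value is uncertain.

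Complement genes and receptors rose in 8 of 10 tested (median 2.32). C3, the central complement component, was at 0.275, 1.13 and 0.649 CPM in EV and at 87.0, 118 and 137 CPM in p42 (log2 change 7.30). C5AR1, the C5a receptor, had 2 counts in the EV group and a ratio of 228 (95% counting interval 62.9 to 1891). CR1, a receptor for C3b (5.16), and ITGAM, the alpha chain of complement receptor 3 (2.67), rose as well on the log2 scale. C3AR1 was not called with spike-ins (0.77, adjusted p = 0.068) and was called with TMM (1.07). Of the receptors for formyl peptides and chemokines and the adhesion molecules, 4 of 20 tested rose and none fell (median -0.01). FPR1 (3.53) and FPR2 (3.14) sense bacterial formyl peptides, ICAM1 (4.28) is an adhesion ligand for leukocyte integrins, and CXCR4 (1.11) is the CXCL12 receptor. The call of CXCR4 was lost without EV library 3 (0.94) and without p42 library c (0.82).

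Among 28 tested monocyte and macrophage markers, 12 were called higher and 1 lower (median 1.13). CD163, the scavenger receptor for haemoglobin and haptoglobin complexes, was at 0, 0.167 and 0 CPM in EV and at 36.8, 73.9 and 77.3 CPM in p42 (log2 change 9.93, SE 0.545). MNDA (8.83), MRC1, the mannose receptor (7.24), and MARCO, a scavenger receptor (0 counts in EV, at least 22.4-fold higher), rose as well. Of the receptors for growth factors and cytokines, 4 of 13 rose and 1 fell (7 and 1 with TMM). IL1R1 went from 16.7 to 28.2 CPM in EV to 87.3 to 185 CPM in p42 (2.80), and IL6R rose by a log2 change of 2.41. FLT3 had 0 counts in EV and at most 0.842 CPM in p42 (at least 11.5-fold higher).

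Of 16 tested transcription factors of the myeloid lineage, 4 rose and none fell. PPARG, a nuclear receptor of lipid handling in macrophages, had 0 counts in all EV libraries and 3.89, 7.36 and 7.87 CPM in p42 (at least 133-fold higher). ID1 (1.59) and ID2 (1.44) rose on the log2 scale. The 12 that were not called included RUNX1 (-0.39). SPI1, which encodes PU.1, was at 170 to 273 CPM in EV and 144 to 319 CPM in p42, and its log2 change of less than 0.01 with spike-ins was 0.27 with TMM. TRIB1, the pseudokinase adaptor that targets C/EBPα for degradation, was counted in the C/EBP list but is not a C/EBP protein. It went from 4.61, 4.85 and 4.92 CPM in EV to 86.3, 152 and 166 CPM in p42 (log2 change 4.81, SE 0.364). Of the C/EBP genes themselves, CEBPD rose (1.46). CEBPE was called at a log2 change of 1.00, and its call was lost with DESeq2 and without EV library 2, EV library 3 or p42 library c (0.56 without the last).

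**Figure D2:**
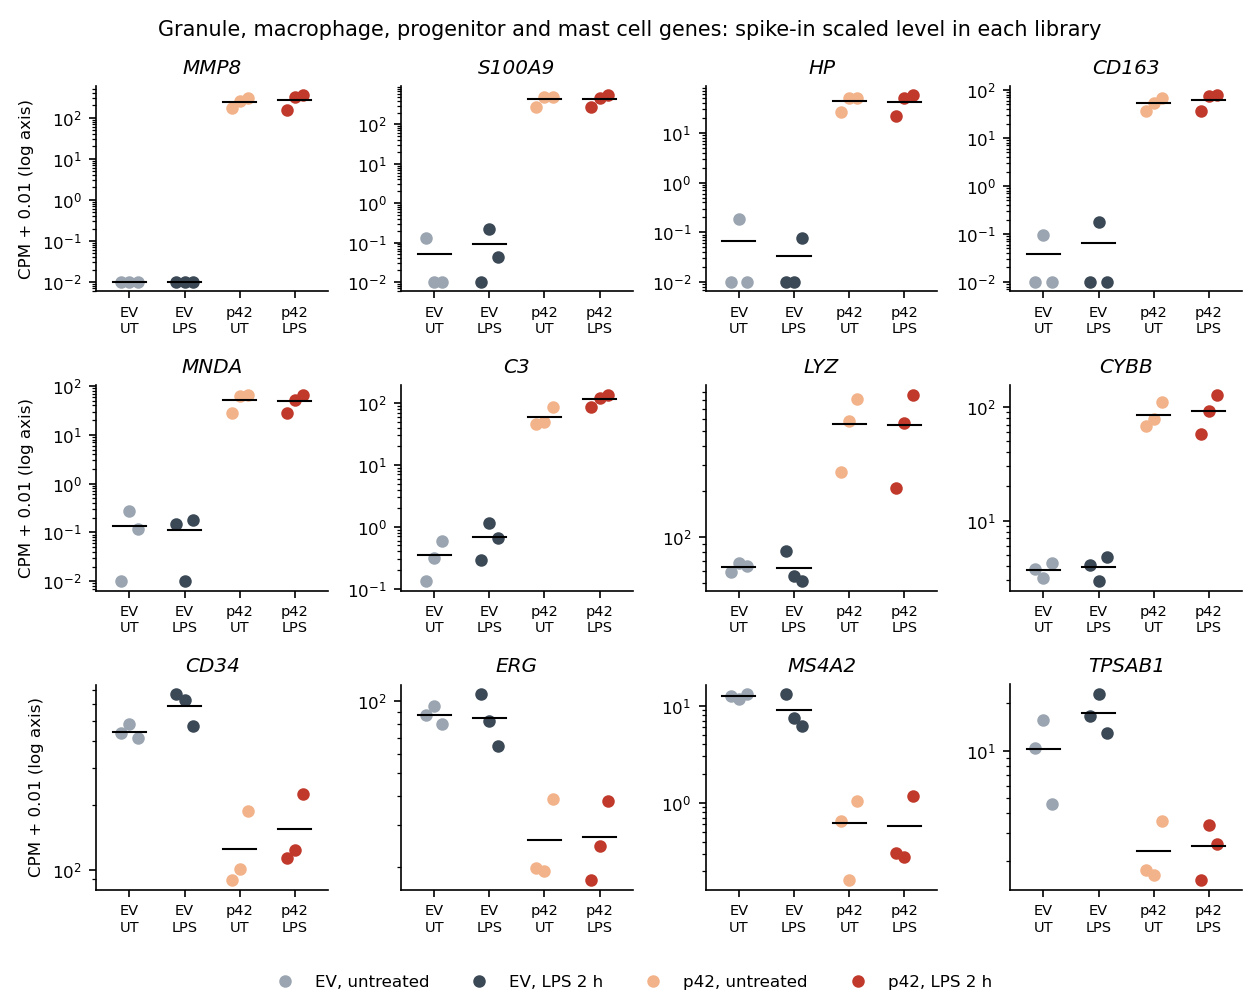
Spike-in scaled CPM plus 0.01 (log axis) of 12 genes in each library of the 4 groups named on the horizontal axis (UT, untreated). Points are libraries, and lines are arithmetic means of 3. MMP8 to CYBB stand higher in both p42 groups than in both EV groups, and CD34, ERG, MS4A2 and TPSAB1 stand lower, with and without LPS.

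The receptor side of the LPS pathway was low in EV and higher in p42. CD14, the co-receptor that hands LPS to TLR4, was at 1.10, 0.836 and 0.683 CPM in EV and at 3.40, 6.21 and 7.65 CPM in p42 (log2 change 2.73, SE 0.421, adjusted p = 3.32e-09). LY96, which encodes MD-2, was at 3.10, 1.25 and 1.37 CPM in EV and at 3.10, 5.05 and 5.26 CPM in p42 (1.26), and this call was lost without EV library 2, EV library 3 or p42 library b. TLR4, named here after its values were seen, was at 30.6, 21.6 and 14.5 CPM in EV and at 30.9, 55.9 and 63.7 CPM in p42 (1.18, adjusted p = 0.00245), and it was at 0.94 without EV library 3 and 0.98 without p42 library c. All 3 tested members of the receptor complex were thus called, against 1 of 10 adaptors and kinases, IRAK2 (3.25), and 1 of 3 listed inhibitors, CD180 (1.73, lost without EV library 2). Without LPS the receptor genes already stood higher in p42, with TLR4 at 44.8 to 81.8 CPM against 16.2 to 23.3 CPM in EV and CD14 at 4.60 to 7.87 CPM against 0.203 to 0.694 CPM. Other pattern recognition receptors rose in 8 of 23 and fell in 1, with the C-type lectins CLEC4D (6.53) and CLEC4E (6.16) and the NOD-like receptor NLRP12 (5.84) at the top. TLR8, a receptor of single-stranded RNA, had 0 counts in EV and a mean of 0.630 CPM in p42, at least 12.7-fold higher.

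The inflammatory output after LPS was far higher in p42 than in EV. TNF (chromosome 6, 31575565-31578336) was at 7.98, 10.6 and 8.03 CPM in EV and at 139, 258 and 319 CPM in p42, a log2 change of 4.75 (SE 0.359, adjusted p = 1.57e-37). IL1B (chromosome 2, 112829751-112836816) was at 104, 75.2 and 79.2 CPM in EV and at 953, 1594 and 1892 CPM in p42 (4.11, SE 0.324). IL1A was at 1.45, 0.585 and 1.16 CPM in EV and at 44, 56.7 and 76.9 CPM in p42 (5.82, SE 0.406). For all 3 genes the lowest p42 library stood above the highest EV library by a wide margin.

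IL6 (chromosome 7, 22725884-22732002) had no reads in the 3 EV libraries and 3.81, 5.41 and 5.10 CPM in p42, at least 104-fold higher. IL1RN, the secreted antagonist of the interleukin 1 receptor, rose as well (5.09), from 7.39 to 8.95 CPM in EV to 185 to 353 CPM in p42. Of 20 cytokines tested 11 rose, none fell, and the median log2 change was 1.33. TGFB1, the most abundant of the 20 in EV after LPS, was not called (-0.66).

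Chemokines rose in 12 of 15 tested, none fell, and their median log2 change was 3.67 (3.91 with TMM), second to the late granule genes among the lists. Their summed level was 91.3 to 144 CPM in the EV libraries and 1386 to 2950 CPM in the p42 libraries. CXCL8 (interleukin 8, chromosome 4, 73740519-73743716) was at 88.9, 41.2 and 73.1 CPM in EV and at 834, 1464 and 1755 CPM in p42 (4.32, SE 0.324). The neutrophil attractants CXCL1 (0, 0 and 0.478 CPM against 29.5, 61.1 and 62.3 CPM) and CXCL2 (12.2 to 13.1 CPM against 90.1 to 202 CPM) followed it. CCL3 was at 5.37, 6.77 and 5.50 CPM in EV and at 125, 263 and 311 CPM in p42 (5.30), and CCL4, its neighbour on chromosome 17, at 1.45, 2.51 and 2.60 CPM and at 74.7, 127 and 154 CPM (5.73). CCL2, which attracts monocytes, was at 14.6 to 23.7 CPM and 141 to 283 CPM (3.38), CXCL10 at 0.683 to 1.31 CPM and 18.4 to 37.7 CPM (4.91), and CCL5 at 6.29 to 7.06 CPM and 13.6 to 27.9 CPM (1.70). CCL20 had no reads in EV and was at least 70.7-fold higher. CCL23 was not called with spike-ins (-1.48, adjusted p = 0.0518) and was called lower with TMM (-1.08).

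**Figure D3:**
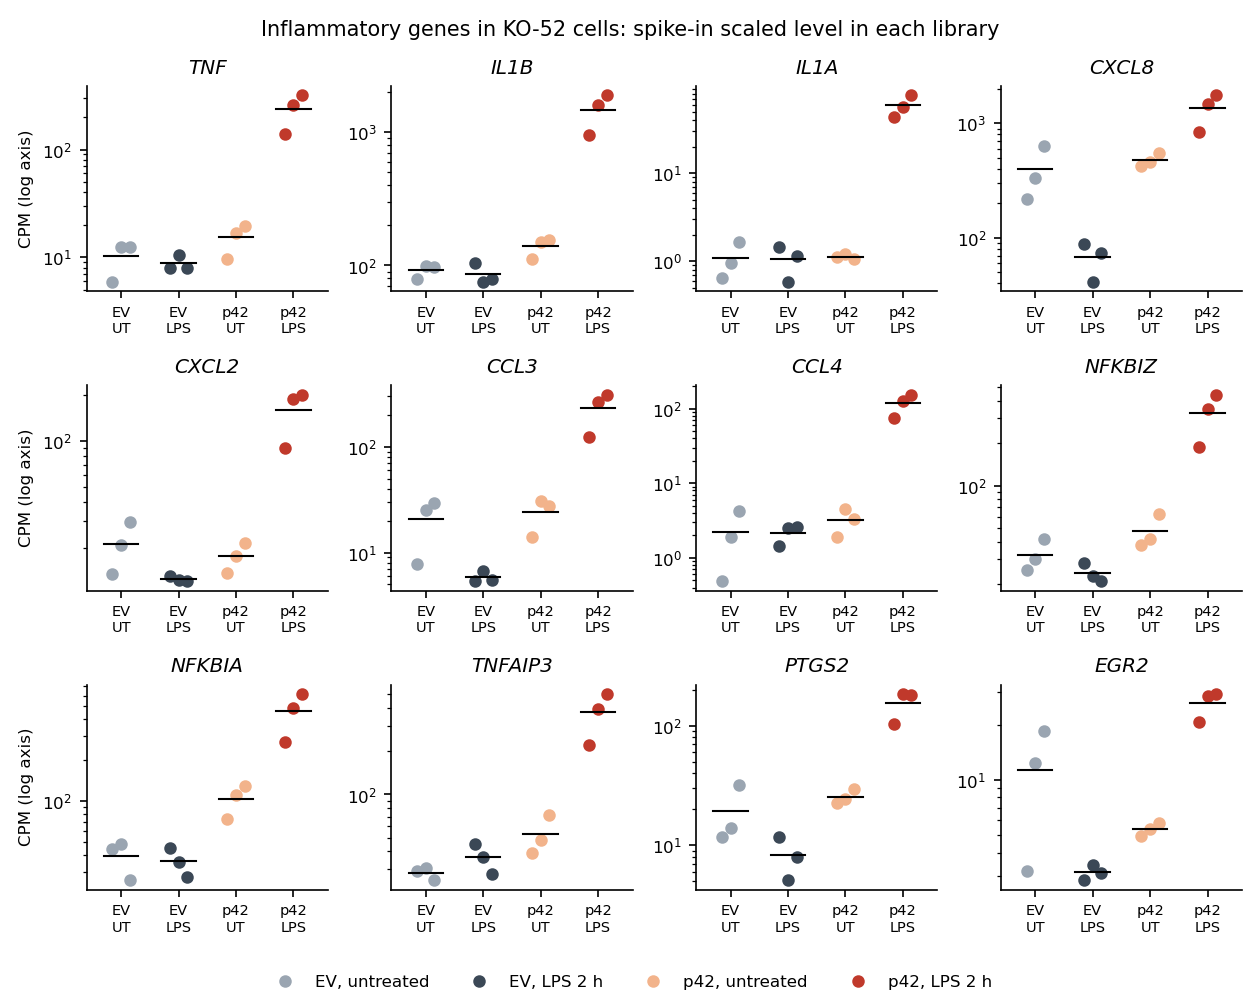
Spike-in scaled CPM (log axis) of 12 inflammatory genes in each library of EV and p42 cells, untreated (UT) and after 2 h of LPS. Points are libraries, and lines are arithmetic means of 3. For each of the 12 genes the 3 p42 libraries with LPS stand above the libraries of the other 3 groups, as for TNF at 139 to 319 CPM against 5.90 to 19.6 CPM.

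Many genes listed as inhibitors of the response were higher too. In the NF-κB list, 7 of 9 members listed as inhibitors rose (median 2.4) against 1 of 5 subunits (median 0.51), and none fell. Inhibitor is the name of that part of the list, and the role of each member in these cells was not tested. NFKBIZ, which encodes IκBζ, was at 28.1, 22.8 and 21.0 CPM in EV and at 189, 346 and 441 CPM in p42 (3.76). NFKBIA, which encodes IκBα, was at 45.6, 35.9 and 27.5 CPM and at 272, 486 and 618 CPM (3.66), and TNFAIP3, which encodes the deubiquitinase A20, at 45.0, 36.6 and 28.0 CPM and at 221, 396 and 505 CPM (3.36). BCL3 rose (2.66), and the subunit NFKB1 was not called with spike-ins (0.51) or with TMM (0.78). Of 11 tested genes listed as feedback inhibitors of signalling, 5 rose and 1 fell. The rises included SOCS3, which blocks JAK and STAT signalling (6.75), and ZC3H12A, an RNase that degrades cytokine mRNA (2.98). The MAP kinase phosphatases DUSP4 (2.90) and DUSP1 (2.16) were also among them. In prostaglandin and leukotriene synthesis 5 of 12 rose and 2 fell. PTGS2 (cyclooxygenase 2) was at 11.7, 5.05 and 7.96 CPM in EV and at 103, 185 and 180 CPM in p42 (4.25), whereas PTGS1 was not called (-0.71). PTGES (1 count in EV, ratio 127, 95% counting interval 22.4 to 5046), ALOX5 (3.87) and PTGDS (0 counts in EV, at least 18.7-fold higher) also rose.

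AP-1 is a dimer of FOS, JUN, ATF and BATF proteins that is activated within minutes of a stimulus, and 4 of its 13 members were called, all higher. JUN went from 16.4, 16.7 and 9.98 CPM in EV to 121, 193 and 208 CPM in p42 (log2 change 3.6, SE 0.340, adjusted p = 3.06e-24). FOS went from 10.3, 13.7 and 7.65 CPM to 24.8, 47.5 and 55.5 CPM (2.01, SE 0.325, adjusted p = 2.44e-08). ATF3 (2.21) and JUNB (1.69) rose as well, and for these 4 genes the groups did not overlap. FOSL2 was at 0.99 with spike-ins, under the fold threshold, and was called with TMM at 1.24. The other 8 were not called: FOSB (0.02), FOSL1 (-0.22), JUND (-0.76), ATF2 (-0.29), ATF4 (-0.33), ATF7 (-0.14), BATF (-0.15) and BATF3 (0.80). For FOSL1, ATF2, ATF7 and BATF the sign turned with TMM (to 0.11, 0.03, 0.16 and 0.14). Without LPS, JUN was at 8.60 to 16.0 CPM and FOS at 5.86 to 19.8 CPM in EV, and JUN was at 102 to 135 CPM and FOS at 44.6 to 96.9 CPM in untreated p42. For none of the 13 was the p42 effect called different between LPS and untreated.

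In the other immediate early genes 4 of 12 rose and 1 fell. IER3 (4.31), KLF2 (3.39), EGR2 (3.07) and KLF6 (1.48) rose. MYC, at means of 591 CPM in EV and 327 CPM in p42, was not called (-0.85, under the fold threshold). The interferon lists moved less than the lists of cytokines and chemokines. CXCL10 was counted with the chemokines and not with the interferon genes. Of 18 interferon regulators 2 rose, IFNGR2 (1.43) and STAT6 (1.20, lost in 1 of the 6 fits that left out a library), and IFN-induced genes were called higher in 2 and lower in 5 of 37 (3 and 3 with TMM), with medians of -0.29 and -0.02 beside -0.29 and 0.02 for all genes. GBP1 rose (3.14), and LGALS3BP (-2.34), IFI27 (-1.77) and GBP4 (-1.64) fell and were below 0 with TMM too (-2.10, -1.46 and -1.34). IFI27 missed the threshold with DESeq2 (adjusted p = 0.0534).

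Whether p42 had changed the state of the cells before LPS, or the reaction to it, was addressed by the same contrast in untreated cells and by the test of the difference between the contrasts. Untreated, 1947 genes were higher (9.15% of those tested) and 451 lower (2.12%), together 2398 (11.3%). The 451 falls became 938 without untreated p42 library 3 and 277 without untreated p42 library 2. No library is shared by the 2 contrasts. Of the 1665 genes higher after LPS, 1384 were also called higher untreated, which was 83.1% of the first list and 71.1% of the second. Of the 806 lower after LPS, 281 were also lower untreated, 34.9% of the first list and 62.3% of the second. By the test of the difference itself 43 genes passed at an adjusted p of 0.05, whatever their fold (0.202% of those tested): in 42 the log2 change after LPS was above that untreated (0.197%), and in 1 it was below (0.00470%). With TMM there were 67 and 4.

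**Figure D4:**
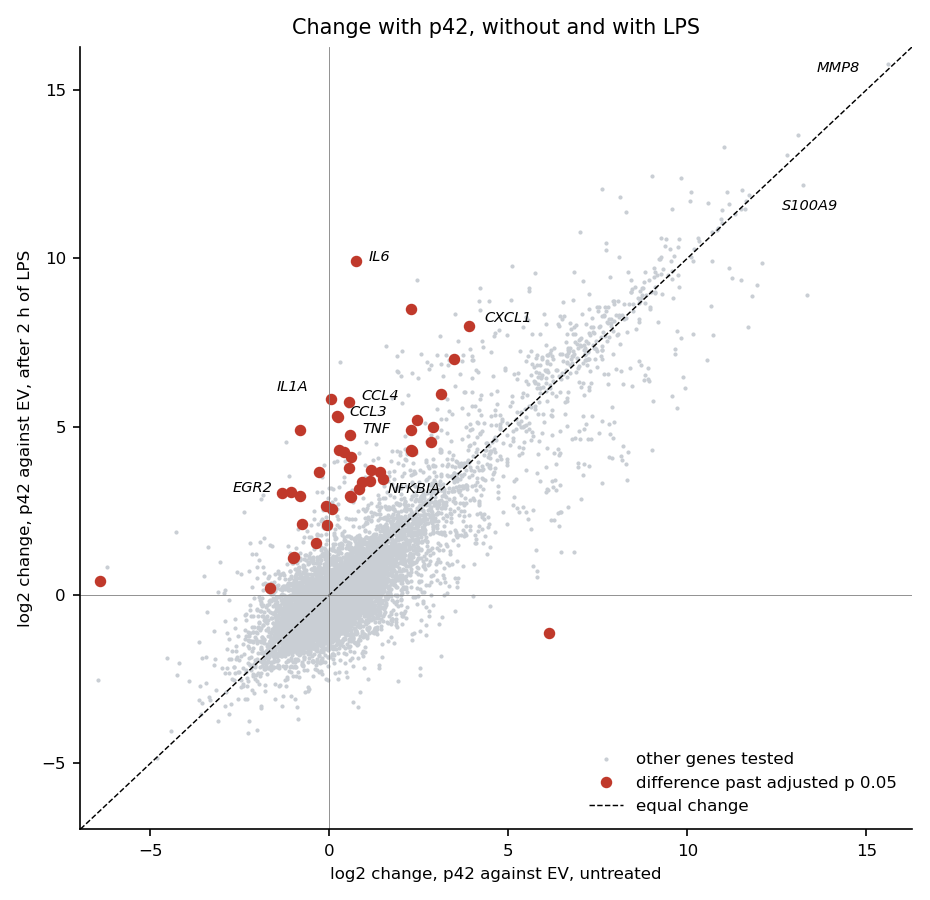
Log2 change of p42 against EV untreated (horizontal axis) and after 2 h of LPS (vertical axis) for the 21272 genes tested. Red points are the 43 genes whose difference between the contrasts passed an adjusted p of 0.05, grey points are the others, and the dashed line marks equal change. IL1A, CCL3, CCL4 and TNF lie near 0 untreated and between 4.75 and 5.82 after LPS.

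These 43 genes included 8 of 15 chemokines, 5 of 20 cytokines and 3 of 14 members of the NF-κB list, and none of 18 late granule, 28 monocyte and macrophage, 16 LPS receptor, 11 feedback inhibitor or 13 AP-1 genes. With TMM these counts were 6 chemokines, 3 cytokines, 4 members of the NF-κB list, 4 feedback inhibitors and 1 LPS receptor list member, IRAK2 (difference 1.40, adjusted p = 0.0221), and 0 for the others. For genes with no reads in EV with or without LPS, such as MMP8, the difference could not be tested. IL1A overlapped between untreated EV and p42 cells (0.651 to 1.66 CPM and 1.07 to 1.22 CPM) and differed by 5.77 on the log2 scale in its p42 effect (adjusted p = 7.07e-23). TNF was at 5.90, 12.5 and 12.3 CPM in untreated EV and at 9.59, 16.9 and 19.6 CPM in untreated p42, against 139 to 319 CPM with LPS (difference 4.17, adjusted p = 2.16e-16). The differences of CCL3 (5.10), CCL4 (5.19) and the non-coding LOC105375914 (5.72) and LINC02605 (5.04) passed too.

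Some of these genes had lower means in EV with LPS than without. CXCL8 was at 219, 335 and 638 CPM in untreated EV and at 41.2 to 88.9 CPM in EV with LPS, while p42 cells had 426 to 546 CPM without and 834 to 1755 CPM with LPS (difference 4.06). EGR2, lower in untreated p42 than in untreated EV (log2 change -1.07), CCL3 and PTGS2 had such means as well (3.12 against 11.3 CPM, 5.88 against 20.7 CPM and 8.24 against 19.1 CPM), and these EV changes were not tested here. IL1B (3.50), CXCL2 (3.94), NFKBIZ (3.21), NFKBIA (2.26), TNFAIP3 (2.46), PTGS2 (3.84), EGR2 (4.14), CD83 (2.13) and BTG2 (1.92) kept an adjusted p under 0.05 with TMM, RLE and DESeq2 and without each of the 12 libraries in turn. The difference of CXCL1 (4.08), CXCL10 (2.64) and IL6 (9.18) passed with spike-ins and missed with TMM (adjusted p = 0.0864, 0.345 and 0.131) and with DESeq2 (0.186, 0.798 and 0.251), and that of CCL2 (2.24) missed with DESeq2 alone (0.24). The call for SOD2 (1.71) was lost without any one of 6 single libraries, that for ICAM1 (1.97) without untreated EV library 2 or p42 library 1, and that for IER3 (2.01) without untreated EV library 3, untreated p42 library 1 or p42 library b with LPS. Of the 42 genes, 40 were also called higher after LPS. In the other 2 the change after LPS was not called, and p42 was lower than EV without LPS. CD69 (difference 1.87) was at 109 to 255 CPM in untreated EV and 47.1 to 63.8 CPM in untreated p42 (log2 change -1.65), and at 36.6 to 58.5 CPM and 41.1 to 74.9 CPM with LPS (0.22). CSF2 (difference 6.83) was at or under 0.687 CPM in all 12 libraries and had no reads in untreated p42. NTN3 (-7.27), the gene with a difference below 0, was at or under 0.854 CPM in all 12 libraries and had no reads in untreated EV. Its difference missed with TMM (adjusted p = 0.0842). These last 3 genes were named after their values were seen.

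To show the DNA in front of genes that moved together, 250 bases before the start of the canonical transcript (GENCODE 44, hg38, gene strand) were read. This was done for the 7 protein-coding genes with the largest such differences under both scalings, of which 6 are reported here (IL1A, CCL3, TNF, EGR2, CXCL8 and CXCL2). It was also done for the 2 late granule and calprotectin genes among the largest rises (MMP8 and S100A9). They were searched on both strands for a κB-type pattern (GGNNNTTCC), an AP-1 pattern (TGANTCA) and a C/EBP pattern (TTGCNNAA), whose letters were settled after these sequences were seen. Of those reported, the 5 with a match are shown because they carry it, with matches in capitals:
IL1A (chr2:112784494-112784743, minus strand): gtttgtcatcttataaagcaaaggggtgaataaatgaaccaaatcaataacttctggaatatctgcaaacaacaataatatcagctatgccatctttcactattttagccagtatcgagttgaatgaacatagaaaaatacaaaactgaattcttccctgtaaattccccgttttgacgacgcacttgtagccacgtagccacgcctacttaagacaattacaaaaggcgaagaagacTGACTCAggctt
CCL3 (chr17:36090144-36090393, minus strand): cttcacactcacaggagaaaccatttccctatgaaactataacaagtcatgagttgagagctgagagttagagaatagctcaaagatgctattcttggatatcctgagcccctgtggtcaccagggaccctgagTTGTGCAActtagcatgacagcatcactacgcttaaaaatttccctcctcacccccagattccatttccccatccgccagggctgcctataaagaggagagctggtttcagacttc
CXCL8 (chr4:73740319-73740568, plus strand): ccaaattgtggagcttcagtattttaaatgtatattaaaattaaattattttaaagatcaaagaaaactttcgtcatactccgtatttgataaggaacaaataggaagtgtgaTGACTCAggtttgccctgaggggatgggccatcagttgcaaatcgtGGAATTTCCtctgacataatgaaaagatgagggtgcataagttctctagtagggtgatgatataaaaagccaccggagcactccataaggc
CXCL2 (chr4:74099196-74099445, minus strand): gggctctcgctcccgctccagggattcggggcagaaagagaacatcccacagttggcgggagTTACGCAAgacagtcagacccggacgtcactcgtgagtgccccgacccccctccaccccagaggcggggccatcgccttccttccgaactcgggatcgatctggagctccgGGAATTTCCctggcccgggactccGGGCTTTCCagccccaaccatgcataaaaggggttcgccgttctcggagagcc
MMP8 (chr11:102724955-102725204, minus strand): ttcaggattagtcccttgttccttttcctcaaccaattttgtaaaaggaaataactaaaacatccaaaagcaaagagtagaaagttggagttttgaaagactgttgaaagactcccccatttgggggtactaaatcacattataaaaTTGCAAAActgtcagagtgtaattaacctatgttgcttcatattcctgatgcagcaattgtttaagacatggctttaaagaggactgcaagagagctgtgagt

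In CXCL8 the AP-1 pattern began 137 bases and the κB pattern 91 bases before the start, and in CXCL2 a C/EBP pattern at 188 bases stood before κB patterns at 77 and 53 bases. IL1A held the AP-1 pattern at 12 bases, and CCL3 and MMP8 the C/EBP pattern at 116 and 103 bases. The windows of TNF, EGR2 and S100A9 held none of these letters. The κB pattern was in 18.4% of 20025 protein-coding windows of this length, in 21.3% of 1140 windows of genes higher after LPS and in 23 of 38 windows (60.5%) of the 42 genes whose log2 change after LPS was above that untreated. The AP-1 pattern was in 4.74% of all windows, 7.81% of those of genes higher after LPS and 4 of the 38, and the C/EBP pattern in 7.13%, 9.82% and 7 of the 38. Called genes come from the genes tested, and in the 13548 windows of these the shares were 19.8% for κB, 3.73% for AP-1 and 6.1% for C/EBP. The 38 include windows seen before the letters were settled, among them those of CXCL8 and CXCL2, so their share is no independent test. A match is a description of the letters and not evidence of binding.

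Falls included genes of progenitors, mast cells and basophils. CD34, the progenitor surface antigen (chromosome 1, 207880972-207911402), was at 669, 627 and 471 CPM in EV and at 113, 124 and 227 CPM in p42 after LPS (log2 change -1.93, SE 0.299, adjusted p = 4.36e-09; -1.65 with TMM). ERG, a stem cell transcription factor, went from 107, 82.3 and 65.0 CPM to 17.6, 24.6 and 38.0 CPM (-1.67, and -1.38 with TMM), and CD7 fell by 1.73 on the log2 scale (-1.40 with TMM). Of 17 tested stem and progenitor genes 5 fell and 1, NT5E, rose (2.52), and 4 of the 5 falls were called in every fit. GATA2 was not called (-0.85). CDK6, the cyclin-dependent kinase at 1211 to 2110 CPM in EV and 559 to 1053 CPM in p42, just missed the fold threshold (-0.996, adjusted p = 0.00337).

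Mast cell and basophil genes fell in 7 of 11 tested and none rose (median -1.14; 5 fell with TMM). MS4A2, the beta chain of the high-affinity IgE receptor, was at 13.2, 7.48 and 6.15 CPM in EV and at 0.293, 0.266 and 1.16 CPM in p42 (-4.04, SE 0.432). FCER1A, its alpha chain (-1.88), the tryptase TPSAB1 (-2.83) and the prostaglandin D synthase HPGDS (-1.45) fell with it, and each was below -1 with TMM. Reads of TPSAB1 may be shared with its tryptase paralogs. Eosinophil genes did not move as 1 group: RNASE2 (2.22), RNASE3 (3.21) and CCR3 (4.72) rose and SIGLEC8 fell (-2.13). Of 8 tested erythroid and megakaryocyte genes, GATA1 (-3.12) and ITGA2B (-1.43) fell and none rose.

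Lymphoid markers split, with 2 higher and 3 lower of 9 tested, and their summed level was 144 to 203 CPM in EV and 69.7 to 121 CPM in p42. CD3D held most of that sum and was called lower with spike-ins (-1.32) and not with TMM, where its log2 change of -0.996 lay just inside the fold threshold. The part of any other cell type in these results was not tested. The 12 largest falls also held HPSE2 (-3.23), MYO16 (-3.11), METTL7B (-2.66), HEPH, a copper-dependent ferroxidase (-2.64), LOC107985449 (-2.48), UBASH3A (-2.48), CDK6-AS1 (-2.41) and PCDH10 (-2.32). All of them were also below -1 with TMM, and all were low in EV (means of 4.24 to 26.8 CPM).

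In antigen presentation, rises were called only among costimulatory genes. The costimulatory genes CD86 (3.16), CD83 (2.07) and CD40 (1.77) rose, and 4 of 10 MHC class II genes fell with spike-ins while none was called with TMM, HLA-DPB1 at -1.22 and -0.95. In the list of inflammasome and cell death genes 4 of 17 rose, among them BCL2A1 (2.19), the pro-apoptotic BCL2L11 (2.28) and CASP1 (1.28), and 2 fell. Of 34 cell cycle and replication genes and of 20 chaperones of the endoplasmic reticulum none was called in either direction, with medians of -0.41 and 0.00 (-0.11 and 0.29 with TMM). MKI67, the proliferation marker, was at -0.14 with spike-ins and 0.13 with TMM. Among 14 CDK inhibitors and cyclins 3 rose, with CDKN1A, which encodes p21, at 1.64 and BTG2 at 1.56, and CDKN2A fell with spike-ins (-1.27) and was not called with TMM (-0.98). Only PPP1R15A (1.24) and TRIB3 (1.09) of 17 genes of the ATF4 response were called, and 5 were with TMM. TRIB3 kept its call in 4 of the 6 fits that left out a library. Of all genes tested, 7.83% were called higher. Lysosomal enzymes were called higher in 3 of 17 (6 with TMM), among them CTSL (4.04), and CTSD, at means of 682 and 1234 CPM, was under the fold threshold (0.86). Of 14 cholesterol genes, ABCA1, the cholesterol exporter (2.02), and INSIG1 (1.22) were among the 3 that rose.

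The p42 libraries with LPS were also set against the p30 libraries with LPS. This contrast uses the same 3 p42 libraries, so its values are given beside those against EV only. Against p30, 1646 genes were higher (7.74%) and 285 lower (1.34%), together 1931 (9.08%). The 285 falls became 144, 163 and 871 without p42 libraries a, b and c, and 174 without p30 library a. TNF was at 56.1, 63.8 and 66.0 CPM in p30 with LPS, with a log2 change of p42 over p30 of 1.95 (4.75 over EV), and IL1A was at 13.2 to 16.8 CPM (2.02 and 5.82). IL1B was at 245 to 314 CPM (2.44 and 4.11), and CXCL8 at 107 to 256 CPM (3.05 and 4.32). CXCL2 was at 8.16 to 12.3 CPM in p30 (4.02 over p30 and 3.67 over EV), and CCL3 at 10.1 to 17.8 CPM (4.12 and 5.30). CCL2, at 111, 276 and 107 CPM in p30, overlapped p42, and the change was 0.30 (adjusted p = 0.626). Of the 3 tested members of the LPS receptor complex, all called against EV, only 1 was called against p30, LY96 (1.13). CD14, at 3.33 to 4.26 CPM in p30, overlapped p42 and was not called (0.64, adjusted p = 0.333).

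MMP8 was at 1.80 to 3.86 CPM and S100A9 at 1.48 to 2.63 CPM in p30, with log2 changes over p30 of 6.60 and 7.73. C3 was at 21.3 to 26.3 CPM. MPO was lower in p42, at 1265 to 1458 CPM in p30 against 165 to 622 CPM in p42 (-1.92, adjusted p = 1.44e-09). FOS was at 6.90 to 7.37 CPM and JUN at 26.1 to 33.2 CPM in p30, with changes over p30 of 2.56 and 2.57. Each of these 2 genes stood lower in every p30 library than in every p42 library.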

How the data were processed

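The authors sequenced poly-A RNA of KO-52 cells with ERCC spike-ins as stranded (dUTP) libraries, aligned reads to hg38 with Bowtie2 2.4.4, and deposited raw counts per RefSeq gene from uniquely mapping reads with featureCounts (Subread 2.0.3). The strand setting is not given in the sources used here. The deposited counts of 59251 genes were used as they stood. Replicates (3 per group) were individual experiments by the study's account.

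Spike-in size factors over 92 ERCC RNAs (DESeq2 1.42.0) entered one edgeR 4.0.16 quasi-likelihood fit (R 4.3.3) of all 18 KO-52 libraries in 6 groups, after edgeR's filter on low counts. Contrasts were p42 against EV with LPS, the same untreated, their difference, and p42 against p30 with LPS. The code was tested on simulated data. Library columns of p42 and p30 with LPS name the group only, so their letters are names.

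Alternatives were TMM, RLE, DESeq2, no filter on low counts, only the groups compared, no fold threshold, a replicate block, and each library left out. Genes named in the text are CEBPA, the 12 largest rises and 12 largest falls without overlap and with a mean of at least 50 counts, of each gene list up to 4 called members with the largest change and up to 2 abundant members not called, the AP-1 family, 8 cytokines, and the 6 largest differences in each direction. Genes outside this rule were named after their values were seen. Members and lists were chosen with earlier results of these data known. Gene positions and promoter windows are from hg38 with GENCODE 44. Some genes and 1 promoter window are not reported here.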

Additional observations from a re-analysis of the deposited data

Results flagged for a closer look

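The p42 effect differed between LPS and untreated cells for 43 genes, by the test of that difference in edgeR's quasi-likelihood fit at an adjusted p under 0.05. As differences in log2 change, LPS minus untreated, the named genes stood at 9.18 for IL6, 6.83 for CSF2, 5.77 for IL1A, 5.72 for LOC105375914, 5.19 for CCL4, 5.10 for CCL3, 5.04 for LINC02605, 4.17 for TNF, 4.14 for EGR2, 4.08 for CXCL1, 4.06 for CXCL8, 3.94 for CXCL2, 3.84 for PTGS2, 3.50 for IL1B, 3.21 for NFKBIZ, 2.64 for CXCL10, 2.46 for TNFAIP3, 2.26 for NFKBIA, 2.24 for CCL2, 2.13 for CD83, 2.01 for IER3, 1.97 for ICAM1, 1.92 for BTG2, 1.87 for CD69 and 1.71 for SOD2. NTN3 was the gene with a difference below 0 (-7.27), and this difference missed the threshold with TMM (adjusted p = 0.0842). IL6, CSF2 and NTN3 had no reads in at least 1 of the 4 groups, so that the size of their fitted difference depends on the prior count. The differences of CSF2 and CD69 were each lost without some single libraries, and that of CSF2 also with TMM and DESeq2. For these 2 genes the change after LPS was not called and p42 was lower than EV untreated.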

How the results depend on the processing

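The counts of called genes for p42 against EV after LPS, p42 against EV untreated and p42 against p30 stayed within 1.5 times of those reported under TMM, RLE, DESeq2, no filter on low counts, only the groups compared and no fold threshold. For p42 against EV after LPS they ran from 1935 (only the groups compared) to 3071 (no fold threshold), and DESeq2 gave 2458. Leaving out 1 library gave 1934 to 3455 genes after LPS, 2048 to 2655 untreated, 1572 to 2288 against p30 and 29 to 53 for the difference, which was 71 with TMM and 73 with RLE. The cause was not tested. Replicate numbers did not pair the EV and p42 libraries (correlations of deviations -0.040, 0.12 and -0.0047), and a fit with the replicate block gave 1934 genes untreated, whereas with LPS the p42 columns carry no number for a block.

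No called gene named in the text changed direction under any of these. Among changes not called, the log2 change turned with TMM and RLE for FOSL1 (0.11 and 0.11), ATF2 (0.027 and 0.026), BATF (0.14 and 0.14), ATF7 (0.16 and 0.16), SPI1 (0.27 and 0.26) and MKI67 (0.13 and 0.13). With 1 library left out it turned in at least 1 fit for ATF2 (-0.55 to 0.010), BATF (-0.41 to 0.047), ATF7 (-0.31 to 0.10), SPI1 (-0.26 to 0.25), MKI67 (-0.41 to 0.086), FOSB (-0.25 to 0.18), CD69 (-0.054 to 0.40), MPO (-0.28 to 0.69) and CSF2 (-0.28 to 5.50, the last without EV library 2). With 3 libraries a group and spike-ins as the only external scale, small falls were not separable from a shift of whole libraries.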
